A study of Mus musculus with 6 samples.

Results

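Guides against the upstream translons of 4 growth-related genes, Npm1, Nhp2, Kpnb1 and Bub1b, were followed through a pooled CRISPR-Cas9 growth screen. An upstream translon is a stretch of an mRNA that is translated although it precedes the main coding sequence, and the gene whose mRNA carries it is called its host here. The members were all guides whose name gives 1 of these 4 hosts, which made 8 of the 151 named guides and 4 of the 73 targeted hosts, with 2 guides per host. The screen was done in an embryonic stem cell line of C57BL/6 mice. Cells of both days came from this 1 line and had been infected with pooled lentivirus, whose lentiCRISPR vector encodes both Cas9 and a guide. There were 3 libraries of guide cassettes from day 0 and 3 from day 10, labelled as biological replicates 1 to 3 of each day. The table's headers call these numbers screens, and libraries with 1 number were compared as 1 screen. The p-values measure the spread between these libraries.

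In a growth screen Cas9 cuts a different site in each cell, as set by the guide the cell took up, and guides are lost from the culture over time where the cut costs the cell its growth. The hosts act at different steps of growth and division. Npm1 encodes nucleophosmin, an abundant protein of the nucleolus that takes part in ribosome assembly and in centrosome duplication. Nhp2 encodes a core protein of the H/ACA ribonucleoproteins, which guide the conversion of uridine to pseudouridine in ribosomal RNA and are also part of telomerase. Kpnb1 encodes importin beta, the carrier that takes proteins with a nuclear localization signal through the nuclear pore. Bub1b encodes BubR1, a protein of the spindle checkpoint that holds back the anaphase-promoting complex until chromosomes are attached to the spindle. The guides were designed against the translated stretch upstream of each coding sequence, and changes in their counts are given here as changes of guides, without assignment to the translon or to the host protein.

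The 8 guide sequences of 20 bases are shown because the pairs differ in how close their targets lie. Capitals mark the bases by which the guides of a pair overlap at their ends.
Npm1 guide 1: tcggtgtgggagaagccgga
Npm1 guide 2: cgtcctgcgcgtctgttctg
Nhp2 guide 1: acaactccgtcccGGCATAG
Nhp2 guide 2: ccgcgtggttcctCTATGCC
Kpnb1 guide 1: ggggactcctcgcAAGACGG
Kpnb1 guide 2: AAGACGGcggcccggcctgt
Bub1b guide 1: gagactcagttagcactcgg
Bub1b guide 2: gaagggcgagagcaagtatt

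The guides of Nhp2 face each other. The last 7 bases of guide 1 are the reverse complement of the last 7 bases of guide 2. Both had an exact match in the RefSeq window of assembly GRCm38.p6 that runs from 250 bases before to 50 bases after the start of Nhp2. Guide 1 lay on the minus strand at chr11:51619788-51619807 and was followed by AGG. Guide 2 lay on the plus strand at chr11:51619775-51619794 and was followed by GGG. AGG and GGG have the form NGG, the motif Cas9 needs beside its target. With a cut 3 bases from that motif, guide 1 would cut after base 18 and guide 2 after base 19 of the annotated gene, so the cuts would lie 1 base apart. The bases shared by the pair hold an ATG, read on the strand of guide 2, which is also the strand of the gene. The other 6 member guides held no ATG on either strand, where 35 of the 136 counted named guides (25.7%) held one.

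The guides of Kpnb1 read in the same direction. The last 7 bases of guide 1 are the first 7 of guide 2, and the next 3 bases of guide 2 are CGG, again of the form NGG. If these letters are 1 stretch of the genome, the targets are shifted by 13 bases. The longest run shared by the guides of Npm1 was 4 bases, and it was also 4 bases for Bub1b, in neither case at the ends. Kpnb1 guides had the highest GC content of the members, at 70% and 75%, against a median of 60% over the counted guides. Nhp2 and Npm1 guides had between 60% and 65%, and Bub1b guides had 55% and 50%. The RefSeq windows of Kpnb1 and Bub1b did not hold their guides. Of the 114 targeting guides whose host had a window, 9 (7.89%) matched it, so most guides were not located here.

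Library depth was uneven. Named guides had from 102313 to 602476 counts in the day 0 libraries, 646655 and 784149 counts in day 10 replicates 1 and 2, and 21991 counts in day 10 replicate 3. The members together made up 5.69% to 5.78% of a day 0 library and 5.15% to 5.42% of a day 10 library. All 8 member guides were counted in all 6 libraries and passed the filter on low counts. The lowest count was 9, for Kpnb1 guide 1 in day 10 replicate 3. Levels below are counts per 1e6 counts of a library whose total was adjusted by TMM scaling in edgeR (CPM). They compare a guide with itself, since guides enter the pool in different amounts.

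Day 10 was set against day 0 to ask whether mutating an upstream translon affects growth. Among the members, both guides against Kpnb1 and guide 1 against Npm1 were lower at day 10, while guides against Nhp2 and Bub1b did not pass the test in either direction. Fitted folds of the 3 guides that fell were 0.581 for Npm1 guide 1, 0.601 for Kpnb1 guide 1 and 0.837 for Kpnb1 guide 2. These 3 of 8 guides (37.5%) were past an adjusted p of 0.05 in the quasi-likelihood test of edgeR, adjusted by Benjamini-Hochberg over 136 guides, and 0 of 8 were higher. Over all guides tested, 21.3% were called, with 14.7% of the 136 lower and 6.62% higher. CPM of the days did not overlap, with day 10 lower, for 4 of the 8 guides against 20.6% of all guides, and without overlap in either direction for 4 of 8 against 38.2%. The median fitted log2 change was −0.08 over the 8 guides and 0.0024 over the 136.

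These calls depend on the library scaling and on single libraries. With size factors from the median ratio of the 6 control guides, an alternative chosen after seeing the data, 0 of the 8 member guides, 0 of the 4 member hosts and 0 of all 136 guides were past the adjusted threshold in edgeR, with 19 of the 136 at an unadjusted p under 0.05. With size factors from the summed counts of the same controls, the 3 calls among the members were kept. In that fit 23 guides were lower and 1 was higher, or 95.8% lower, against 69.0% with TMM scaling, and the median of all guides moved to −0.11. Without day 0 replicate 1 no member guide was past the threshold (0 of 8), and 3 of all guides were. With the screen as a block, 12 guides were called in all, and Npm1 guide 1 was the 1 member among them.

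Npm1 guide 1 fell in all 3 screens. Its CPM was 2882, 2573 and 2779 in day 0 replicates 1 to 3 and 1494, 1801 and 1407 in day 10 replicates 1 to 3. The highest day 10 library lay below the lowest day 0 library. The fitted log2 change was −0.78 ± 0.15 (SE, n = 3 per day), with an edgeR adjusted p of 0.00735, and this was the 5th lowest of the 136 guides. The log2 ratios of day 10 over day 0 were −0.95 in screen 1, −0.51 in screen 2 and −0.98 in screen 3. Their 95% intervals for counting error alone were −1.14 to −0.75, −0.70 to −0.33 and −1.54 to −0.47, so each excluded 0. The edgeR adjusted p was 0.0141 when the screen entered as a block. Without day 0 replicate 1 the fitted log2 change was −0.75 with an edgeR adjusted p of 0.0509, and with median-ratio factors from the control guides these were −0.75 and 0.0717.

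Npm1 guide 2 was the most abundant of the 8 guides and changed less. Its CPM was 20886, 20161 and 20714 at day 0 and 19662, 18094 and 16834 at day 10. The days did not overlap here either, with day 10 lower. The fitted log2 change of −0.17 ± 0.07 (SE, n = 3 per day) was not past the threshold, with an edgeR adjusted p of 0.116. The log2 ratios were −0.09, −0.16 and −0.30 in screens 1 to 3, and the 3 counting intervals excluded 0. These intervals cover counting error only, and in each screen the ratio lay within the range of the 6 control guides. All 6 controls were rarer guides, with day 0 mean CPM of at most 3038. Without day 10 replicate 1, the edgeR adjusted p was 9.1e-04 at a fitted log2 change of −0.22. That fit called 47 of the 136 guides, and 1 of the 6 control guides was among them. It was the only 1 of 20 alternatives that called Npm1 guide 2, and the other 19 did not. With median-ratio factors from the control guides, the edgeR adjusted p was 0.774.

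The share of guide 1 among the Npm1 counts was lower at day 10. Guide 1 made up 11.8% ± 0.409 of the counts of the host in day 0 libraries (SD, n = 3) and 7.94% ± 1.02 in day 10 libraries (SD, n = 3). This ratio within a library does not depend on library scaling. The log2 ratio of guide 1 over guide 2 was −2.86, −2.97 and −2.90 in the day 0 libraries and −3.72, −3.33 and −3.58 in the day 10 libraries. The mean difference between the days was −0.63, a fold of 0.644, and the days did not overlap. How often this ratio had no overlap over all hosts was not determined. An exact permutation test (two-sided) of this difference had p = 0.1, which is the lower limit for 3 libraries against 3, and p = 0.2 after adjustment over the 4 hosts.

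Both guides against Kpnb1 fell. Guide 1 was the rarest of the 8, with CPM of 867, 749 and 781 at day 0 and 559, 429 and 408 at day 10. The days did not overlap. Its fitted log2 change was −0.74 ± 0.22 (SE, n = 3 per day) with an edgeR adjusted p of 0.0394. The log2 ratios were −0.63, −0.80 and −0.94 in screens 1 to 3, and the interval of screen 3, which rests on 9 counts at day 10, ran from −2.07 to 0.0010.

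Kpnb1 guide 2 was more than 10 times as abundant as guide 1. Its CPM was 9961, 9834 and 9487 at day 0 and 8116, 7771 and 8984 at day 10. The days did not overlap, and day 10 replicate 3 was nearest to day 0. The fitted log2 change was −0.26 ± 0.08 (SE, n = 3 per day) with an edgeR adjusted p of 0.0394. The log2 ratio was −0.30 in screen 1 and −0.34 in screen 2, where the counting intervals excluded 0, and −0.08 in screen 3, where the interval ran from −0.29 to 0.13.

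Neither Kpnb1 guide was called with the screen as a block, which gave an edgeR adjusted p of 0.0706 for guide 1 and 0.102 for guide 2. Both also missed the threshold without each day 0 library in turn and without day 10 replicate 2, with edgeR adjusted p-values between 0.0863 and 0.215, and guide 1 did so without day 10 replicate 3, at 0.0611. Guide 1 missed it in the DESeq2 test (adjusted p = 0.0733). Guide 2 missed it with DESeq2 size factors in edgeR (adjusted p = 0.0562) and with a trend with guide GC content removed (edgeR adjusted p = 0.0778). The removal of that trend gave guide 2 a lower fitted log2 change with a larger SE than the main fit, −0.38 ± 0.11 (SE). Guide 1 was also lower with it, at −0.84 ± 0.19 (SE), and stayed called (edgeR adjusted p = 0.0296). With that removal and the screen as a block, both missed it, each at an edgeR adjusted p of 0.0750.

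The share of guide 1 among the Kpnb1 counts also went down. It was 7.56% ± 0.465 in day 0 libraries (SD, n = 3) and 5.34% ± 1.05 in day 10 libraries (SD, n = 3). The log2 ratio of guide 1 over guide 2 was −3.52, −3.71 and −3.60 in the day 0 libraries and −3.86, −4.18 and −4.46 in the day 10 libraries, without overlap. The mean difference was −0.55, with an exact two-sided permutation p of 0.1 and 0.2 after adjustment over the 4 hosts. Here too the share of all hosts without overlap was not determined. In Npm1 and in Kpnb1 the guide named 1 was thus the rarer one at day 0 and the one with the lower fold. In Bub1b and in Nhp2 the rarer guide had the higher fitted fold, with no guide of these hosts called. The folds were 1.09 for Bub1b guide 1 against 1.04, and 1.12 for Nhp2 guide 2 against 1.00. The guides of Kpnb1 overlap by their letters and those of Npm1 do not.

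Guides against Nhp2 did not pass the test. Guide 1 had CPM of 8763, 8979 and 7873 at day 0 and 9128, 8456 and 7578 at day 10, and guide 2 had 4703, 5701 and 5165 at day 0 and 5914, 6330 and 4855 at day 10. The days overlapped for both guides. The fitted log2 changes were 0.0029 ± 0.09 (SE, n = 3 per day; edgeR adjusted p = 0.994) for guide 1 and 0.17 ± 0.12 (SE, n = 3 per day; edgeR adjusted p = 0.333) for guide 2. Their 95% intervals from the fit ran from −0.19 to 0.20 and from −0.09 to 0.42. The screens did not share a direction. For guide 2 the log2 ratios were 0.33 and 0.15 in screens 1 and 2, with counting intervals above 0, and −0.09 in screen 3, with an interval from −0.38 to 0.19. For guide 1 all 3 counting intervals held 0.

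The 2 cuts predicted for Nhp2 lie 1 base apart, and the guides can be set against each other on that ground. Guide 1 made up 62.2% ± 2.51 of the counts of the host in day 0 libraries (SD, n = 3) and 59.6% ± 2.10 in day 10 libraries (SD, n = 3). The log2 ratio of guide 1 over guide 2 was 0.90, 0.66 and 0.61 at day 0 and 0.63, 0.42 and 0.64 at day 10, and the days overlapped. The mean difference was −0.16, with an exact two-sided permutation p of 0.4 and 0.533 after adjustment over the 4 hosts.

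Guides against Bub1b did not pass the test either. Guide 1 had CPM of 1032, 1410 and 1269 at day 0 and 1229, 1497 and 1316 at day 10. Guide 2 had 8491, 8503 and 8221 at day 0 and 8600, 8089 and 10028 at day 10. The days overlapped for both. The fitted log2 changes were 0.13 ± 0.18 (SE, n = 3 per day; edgeR adjusted p = 0.737) for guide 1 and 0.05 ± 0.09 (SE, n = 3 per day; edgeR adjusted p = 0.769) for guide 2, with 95% intervals from −0.28 to 0.53 and from −0.14 to 0.24. Guide 1 rests on 29 counts in day 10 replicate 3. Of the 6 values in single screens, 1 had a counting interval without 0, that of guide 2 in screen 3, at 0.29 (0.09 to 0.48). The log2 ratio of guide 1 over guide 2 differed between the days by 0.05, with an exact two-sided permutation p of 0.9.

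With the counts of both guides summed, the hosts Kpnb1 and Npm1 were lower at day 10, which makes 2 of 4 hosts. Of all 67 hosts tested, 37.3% were called, with 22.4% of the 67 lower and 14.9% higher. Kpnb1 had 10559 ± 281 CPM at day 0 and 8756 ± 601 CPM at day 10 (SD, 3 libraries each). Its fitted log2 change was −0.29 ± 0.08 (SE), and the edgeR adjusted p was 0.0112. Npm1 had 23332 ± 536 CPM at day 0 and 19764 ± 1462 CPM at day 10 (SD, 3 libraries each). Its fitted log2 change was −0.22 ± 0.06 (SE), and the edgeR adjusted p was 0.0103. Libraries of the days did not overlap for either host, where 47.8% of all hosts had no overlap and 20.9% were lower without overlap. Because the summed counts follow the abundant guide, these values lie near those of Kpnb1 guide 2 and Npm1 guide 2.

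Nhp2 had 13728 ± 852 CPM at day 0 and 14087 ± 1438 CPM at day 10 (SD, n = 3 per day). Its fitted log2 change was 0.07 ± 0.08 (SE, edgeR adjusted p = 0.600), with a 95% interval from −0.11 to 0.24. Bub1b had 9642 ± 235 and 10253 ± 952 CPM (SD, n = 3 per day). Its fitted log2 change was 0.06 ± 0.08 (SE, edgeR adjusted p = 0.618), with a 95% interval from −0.12 to 0.24. The sign of both turned with size factors from the summed control guides, to −0.05 for each, where the median of all guides was −0.11. Nhp2 guide 1 and Bub1b guide 2 turned sign in that fit too, to −0.11 and −0.06. In order of fitted log2 change from the lowest, the hosts were at places 12 (Kpnb1), 15 (Npm1), 40 (Bub1b) and 41 (Nhp2) of 67.

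The Npm1 host was over the threshold without day 0 replicate 1 and without day 0 replicate 3, with edgeR adjusted p-values of 0.0885 and 0.0588. The Kpnb1 host was over it without each day 0 library and without day 10 replicate 2, with edgeR adjusted p-values from 0.0505 to 0.0903. Both stayed under it with the screen as a block and without day 10 replicate 3.

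In single screens, Npm1 had log2 ratios of −0.17, −0.19 and −0.37 and Kpnb1 of −0.32, −0.37 and −0.13. Both hosts were lower in 3 of 3 screens, and the order of the pair was the other way round in screen 3. Being lower without overlap fixes this direction in every screen, and 20.9% of the 67 hosts were lower without overlap. Nhp2 had 0.16, 0.01 and −0.07 and Bub1b had 0.05, −0.05 and 0.26. Ratios between hosts, which do not depend on library scaling, were compared for the 6 pairs of hosts. The log2 ratio of Kpnb1 over Bub1b went from 0.13 ± 0.05 to −0.23 ± 0.05 (SD, n = 3 per day). That of Npm1 over Bub1b went from 1.27 ± 0.07 to 0.95 ± 0.23 (SD, n = 3 per day), and that of Npm1 over Nhp2 from 0.77 ± 0.12 to 0.49 ± 0.06 (SD, n = 3 per day). The days did not overlap in these 3 pairs, and each had an exact two-sided permutation p of 0.1, the smallest possible, and 0.2 after adjustment over the 6 pairs. Each of these pairs holds Kpnb1 or Npm1, the hosts called lower, so the pairs are not separate results. Among all single hosts 47.8% had no overlap, and the share over all pairs of hosts was not determined. For Nhp2 over Kpnb1 the mean rose by 0.31, but the days overlapped (exact permutation p = 0.2). Npm1 over Kpnb1 differed by 0.03 and Nhp2 over Bub1b by −0.05, with exact permutation p-values of 0.9 and 1.0.

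The 3 non-targeting and 3 safe-targeting control guides show the spread without a targeted translon. Their fitted log2 changes ran from −0.42 to 0.55 with a median of 0.06, and 0 of 6 were past the adjusted threshold. In some alternatives control guides were called. These were 2 with voom and separate variances for the days, 1, 3 and 1 without day 10 replicates 1, 2 and 3, and 1 in a fit with a GC trend and the block that was chosen after seeing the data. Npm1 guide 1 and Kpnb1 guide 1 lay below the lowest control, and the other 6 member guides lay within the range of the controls. The lowest control was itself the 17th lowest of the 136 guides, so guides of other hosts lay below it too. In screen 1 the controls ran from −1.34 to 1.18, which holds the log2 ratios of all 8 member guides. In screen 2 they ran from −0.44 to 0.35 and in screen 3 from −0.47 to 0.84, and in both screens Npm1 guide 1 and Kpnb1 guide 1 lay below the lowest control. The other 6 member guides lay within these ranges, also where their counting intervals excluded 0. The controls had day 0 mean CPM from 709 to 3038, against 20587 for Npm1 guide 2 and 9760 for Kpnb1 guide 2. Fitted SEs ran from 0.12 to 0.34 for the controls, against 0.07 and 0.08 for these 2 guides. The range of the controls is thus not matched to abundant guides. The share of all guides below the lowest control of a single screen was not determined.

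Few other genes of the same pathways were in the library. The list for the nucleolus and ribosome assembly held 2 targeted hosts, Npm1 and Nhp2 themselves, of which 1 was lower. The list for nuclear transport held 3 targeted hosts, of which Ipo7, an importin, was never counted. Ranbp1, a partner of the GTPase Ran that drives nuclear transport, was not past the threshold at a fitted log2 change of 0.13 ± 0.10 (SE, edgeR adjusted p = 0.336). The mitosis list held Bub1b and Prc1, a protein that bundles microtubules of the central spindle. Prc1 had a fitted log2 change of −0.01 ± 0.08 (SE, edgeR adjusted p = 0.923). Of 6 ribosomal protein hosts, 4 were lower and 0 were higher, where 22.4% of all 67 hosts were lower and 14.9% higher. Their median fitted log2 change was −0.37, against 0.02 over all 67 hosts.

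For each member host, the 3 hosts with the most similar log2 ratios over the 3 screens were found, with the root mean square difference as the measure. For Npm1 these were Dppa5a at 0.128, Pa2g4 at 0.156 and Elobl at 0.184, where the median over 66 hosts was 0.337. Dppa5a had a fitted log2 change of −0.24 (edgeR adjusted p = 0.0152). Pa2g4 and Elobl were not called, at −0.07 (edgeR adjusted p = 0.475) and −0.05 (edgeR adjusted p = 0.665). For Kpnb1 they were Rpl32 at 0.0973, Jarid2 at 0.108 and Zbtb10 at 0.129, against a median of 0.361. Rpl32 and Zbtb10 were called lower, at −0.30 (edgeR adjusted p = 0.00974) and −0.35 (edgeR adjusted p = 0.0216). Jarid2 was not called, at −0.20 (edgeR adjusted p = 0.0761). For Nhp2 they were Mlf2 at 0.0373, Eif2s2 at 0.0438 and Hsp90ab1 at 0.0485, against a median of 0.224. For Bub1b they were Huwe1 at 0.0828, Shmt1 at 0.0921 and Cct7 at 0.106, against a median of 0.245. With 3 screens that share library scaling, likeness is a description of these libraries.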

How the data were processed

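The deposited table holds raw counts, 1 row per guide sequence and 1 column per screen and day, per the file headers. Bowtie2 2.3.4.3 is named in the submitters' processing notes without a role, and the rule for mismatches is not given in the sources used here. Missing entries were read as 0. Unnamed sequences (1.25% to 1.48% of a library's counts) were left out. A guide entered the test when 3 or more libraries had 10 or more counts of it. The test was edgeR's quasi-likelihood F test (edgeR 4.0.16, R 4.3.3), with TMM scaling and day as the only term. Hosts were tested on summed counts with the same scaling. The SE is the log2 fold change divided by the square root of F, and 95% intervals of a fit use its t quantile. Benjamini-Hochberg adjustment ran over all guides or over all hosts, and the threshold was 0.05.

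The log2 ratio of a screen divides scaled counts without a pseudocount, and its exact (Clopper-Pearson) interval covers counting error only, since PCR reads without molecular identifiers are not independent molecules. Ratios within a library were compared with exact permutation tests in scipy 1.17.1. The numbers name screens in the file headers, and a screen has a library of each day. The main fit and the permutation tests did not use this pairing, and the screen as a block was an alternative. Deviations of a screen's 2 libraries from the mean of each day correlated over guides at −0.09, −0.20 and −0.02. Since 1 library of each screen was shallow (102313, 113909 and 21991 counts), these correlations cannot decide whether a weak pairing was present. Guide sequences come from the deposited table, and windows around gene starts from RefSeq (GRCm38.p6), which held 3 of the 4 hosts.

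All member guides and hosts are named. Other hosts are named by likeness over the screens or by lists of symbols. The members, lists and alternatives were chosen with earlier results of these data known. Alternatives were DESeq2 1.42.0, its size factors, library totals, size factors from the control guides, other count filters, the screen as a block, removal of a GC trend, voom (limma 3.58.1) with separate variances for the days, the removal of Psmd1 guide 2, an adjusted p under 0.1 and each library left out.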

Additional observations from a re-analysis of the deposited data

How the results depend on the processing

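Over 20 alternatives each, the hosts Npm1 and Kpnb1 kept a negative log2 fold change, from −0.34 to −0.19 and from −0.42 to −0.22, and so did their 4 guides. Dropping the count filter was 1 of the 20 and repeated the main fit, since all 136 counted guides passed the filter. Of 80 host results, 71 kept their side of the threshold, 8 lost the call, 1 gained it and 0 reversed. Of 160 guide results these counts were 139, 20, 1 and 0. Only results called in the main fit could lose a call, so the kept counts are mostly of uncalled results for guides. Each of the 2 Kpnb1 guides lost its call in 9 of 20 alternatives, and Npm1 guide 1 lost it in 2. The Kpnb1 host lost its call in 5 of 20 and the Npm1 host in 3. A change of sign counted as reversed only where the main fit or the alternative was past the threshold. Among results not called, the sign changed in 8 of 20 alternatives for Nhp2 guide 1 and in 2 for Bub1b guide 2. For the Nhp2 host and the Bub1b host it changed in 1 alternative each. All 70 ratio results over alternatives moved by less than the larger of the SDs of the days. Leaving out 1 of 3 libraries cannot move the mean of a day by that much, so this outcome was fixed for those results. Only the results with 0.5 added to each count were free to differ. Leaving out 1 library turned the sign of 3 ratios that were near 0, to −0.09 for the Bub1b guides without day 10 replicate 2 (−0.08 without day 0 replicate 1), to −0.03 and −0.02 for Npm1 over Kpnb1 without day 10 replicates 1 and 2, and to 0.11 for Nhp2 over Bub1b without day 10 replicate 3. Median-ratio factors from the control guides, chosen after seeing the data, gave 0 guides and 2 hosts past the threshold, with log2 fold changes of −0.20 for the Npm1 host (edgeR adjusted p = 0.632) and −0.25 for the Kpnb1 host (edgeR adjusted p = 0.452). With separate variances for the days, voom gave 50 guides and called the Nhp2 host higher, at 0.16 (adjusted p = 0.0166), and also called 2 of the 6 control guides. The replicate block gave 12 guides, all among the 29, and took both Kpnb1 guides over the threshold. It changed no other call among the members. Removal of the GC trend gave 10 guides, with Kpnb1 guide 2 no longer among them, and 7 with the replicate block, without either Kpnb1 guide. Without the block, the removal moved the Kpnb1 host to −0.42 (edgeR adjusted p = 0.00693) and the Bub1b host to 0.16 (edgeR adjusted p = 0.162). That trend was steepest in day 10 replicate 1, and fitted on the 128 guides with at least 10 counts in every library, chosen after seeing the data, it gave 28 guides, and 31 with the block, each with the same 3 member guides. The cause was not tested.

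Without single libraries, guides past the threshold ranged from 3 to 47 and hosts from 13 to 30. The log2 fold change ranged from −0.27 to −0.19 for the Npm1 host, from −0.33 to −0.22 for Kpnb1, from 0.02 to 0.12 for Nhp2 and from 0.01 to 0.12 for Bub1b. The lowest count behind a value was 9, for Kpnb1 guide 1 in day 10 replicate 3.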

Other observations

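Unnamed sequences of the table were compared with the 8 member guides. None (0) lay within 3 edits of a member guide, and 4 shared a run of at least 10 bases with one. Of these, 3 had a single count. The fourth shared 10 bases with Nhp2 guide 1 and had 42 counts, of which 33 were in day 10 replicate 2.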
